A study of Rattus norvegicus with 4 samples.

Results

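Here 10 genes of the Notch pathway were examined in oligodendrocyte precursor cells (OPCs) of the rat, cycling glial cells in culture from which myelin-forming oligodendrocytes arise. They are the receptors Notch1, Notch2 and Notch3, the ligands Jag1, Dll1 and Dll3, and the target genes Hes1, Hes5, Hey1 and Nrarp. The members were chosen by name, with earlier results of these data known, and every probe whose RefSeq accession maps to one of these symbols was taken. This gave 10 probes, 1 per gene, of 45598 on the array. Only 21109 probes could be named in this way, so further probes of these genes may have been missed. The labels' protocols describe cells from the cortex of rats at postnatal day 2, expanded in bFGF and PDGF over 3 days before transfection by RNAiMax. One group received miR-125a-3p mimics at 50 nM (called miR-125a-3p here) and the other a negative control RNA (miR-neg). RNA was taken after 48 h, and each of the 2 samples per group was read on 1 single-colour Agilent array. Strain and sex are not in the labels, whose cell type field reads oligodendrocytes. Nor is it said that the samples of a group were from different animals or cultures, and the p-values therefore measure only the spread between these samples. The comparison asks what differs when this microRNA is raised.

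Notch receptors are activated by Jagged or Delta-like ligands on a neighbouring cell. ADAM proteases and then gamma-secretase cut the bound receptor, and its intracellular part joins the DNA-binding protein RBPJ and Mastermind coactivators to switch on Hes, Hey and Nrarp genes. In the oligodendrocyte lineage, Jagged1 acting on Notch1 is known to hold precursors back from differentiating, with Hes5 as an effector.

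The agent is shown here by the mature microRNA as RefSeq gives it (GRCr8, chr1:67350727-67350748, plus strand), with its seed, bases 2 to 8, in capitals. Of 724 mature rat microRNAs in that table, 1 has this seed.
rno-miR-125a-3p: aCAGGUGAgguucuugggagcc

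The arrays had 26332 and 26822 probes well above background in miR-neg and 28138 and 26902 in miR-125a-3p, and 0 spots were saturated. The number of arrays limits the precision. Levels are log2 of the background-subtracted signal relative to the array's 75th percentile, which lay at a signal of 745 and 679 in miR-neg and 702 and 717 in miR-125a-3p. All 9 precursor markers on the array, Pdgfra, Cspg4, Sox10 and Olig2 among them, were well above background on all 4 arrays. Their median log2 change was 0.08, with 6 above 0 and 3 below, and 0 passed the test described below. Among them Pdgfra was 1.30-fold lower after the mimic, with its groups apart. Markers of other cells were also measured, and 1 of 9 for astrocytes (Aldh1l1) and 1 of 8 for microglia (C1qa) rose in the test described below. Over all 23155 features tested, 0.38% passed as higher, and the groups were apart, in either direction, for 52.9%. Among microglial markers the median log2 change was 0.68. Aif1, Tyrobp, C1qa and C1qb were 2.95-, 2.57-, 2.72- and 2.41-fold higher and their groups apart. The other microglial markers tested did not rise in this way, with log2 changes of 0.09 (Itgam), -0.0008 (P2ry12), -0.06 (Cx3cr1) and -0.28 (Cd68). The median of the astrocyte markers was 0.32, with Aqp4 2.89-fold and Gja1 2.38-fold higher and their groups apart. Gfap and Slc1a3 had log2 changes of 0.66 and 0.32. S100b, Slc1a2 and Aldoc changed little, by 0.04, 0.05 and 0.10. Sox9 was at 0.08 at its brightest probe, the one tested, but its dimmer probes disagreed, at -0.32, 0.61 and 0.85. Of Aif1, Tyrobp, C1qa, C1qb, Aqp4 and Gja1, C1qa alone passed. Median log2 changes were 1.12 for fibroblast, 0.10 for neuronal and 0.13 for endothelial and mural markers. Pdgfrb counts in both the fibroblast and the endothelial and mural lists. It was well above background on 0 miR-neg and 2 miR-125a-3p arrays, so it was kept only through the mimic group. With normexp background correction the medians were 0.31 for microglial, 0.33 for astrocyte, 0.38 for fibroblast and 0.09 for neuronal markers. For endothelial and mural markers it was then 0.07. Summed levels weigh bright probes most, and their ranges did not overlap between groups except for microglial and precursor markers. In multiples of the 75th percentile, that of 9 precursor markers was 356 to 378 in miR-neg and 359 to 378 in miR-125a-3p. The summed level of 9 astrocyte markers, in multiples of the 75th percentile, was 183 to 195 in miR-neg and 206 to 209 in miR-125a-3p. Most of this sum came from Aldoc, with signals of 116749 and 113251 in miR-neg and 120650 and 125623 in miR-125a-3p. The summed level of 4 fibroblast markers was 0.323 to 0.327 against 0.557 to 0.701. For 8 microglial markers it was 3.88 to 4.46 against 4.29 to 4.81, for 9 neuronal markers 21.1 to 21.7 against 23.2 to 23.8, and for 6 endothelial and mural markers 3.22 to 3.69 against 3.81 to 3.95. Gjb6, Ptprc, Slc17a6, Pecam1, Dcn and Lum were well above background on 0 arrays. Their part in the Notch values was not tested. In such bulk RNA, a different number of cells of a type and a different amount of RNA per cell cannot be told apart.

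None of the 10 Notch genes passed the test between the groups. The target gene Nrarp and the ligand gene Jag1 came nearest, Nrarp 1.35-fold higher and Jag1 1.37-fold lower after the mimic. The repressor genes Hes5 and Hey1 had log2 changes of 0.10 and 0.01. In limma's moderated test with Benjamini-Hochberg adjustment over 23155 features, 0 of 10 members had an adjusted p under 0.05, where 159 features, or 0.687%, did (0.38% higher and 0.307% lower). At an unadjusted p under 0.05 there were 2 members, against 19.5% of all features. The groups did not overlap for 6 members, 3 higher and 3 lower after the mimic. The same held for 52.9% of all features (28.7% higher and 24.1% lower), so the members' share is near the background. The median change of the members was -0.0013 on the log2 scale and that of all features 0.01. An exact permutation test of 2 samples against 2 cannot give a p below 0.333, so it was not used.

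**Figure D1:**
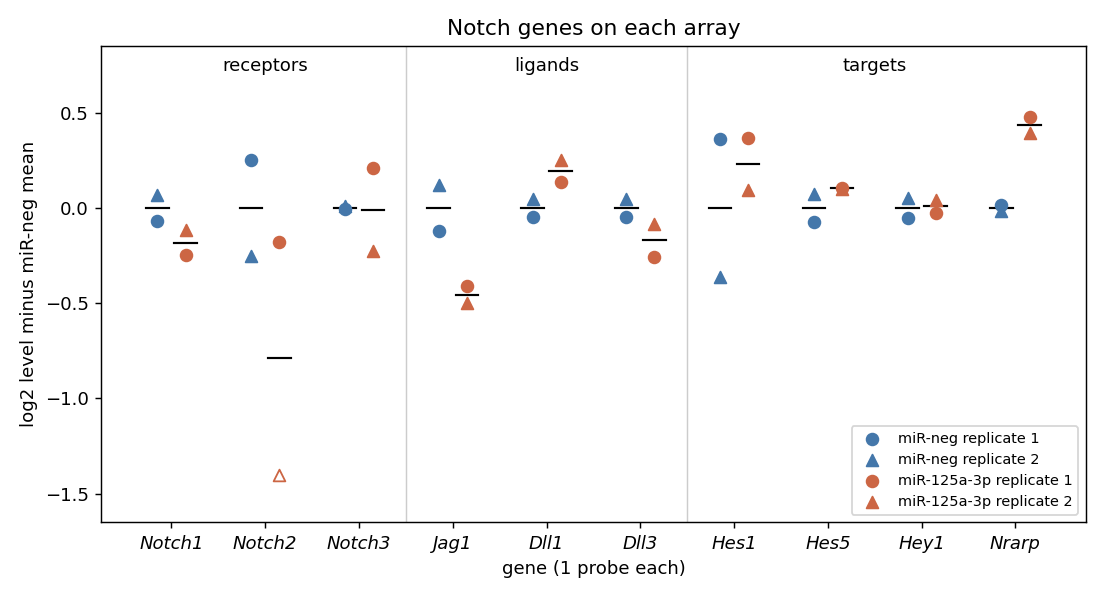
Each point is 1 array's log2 level minus the miR-neg mean of that gene, with circles for replicate 1, triangles for replicate 2 and short lines for group means. The open triangle, miR-125a-3p replicate 2 of Notch2, was not well above background. Nrarp and Jag1 show the widest gaps between groups, 0.38 and 0.29, and the dim genes Notch2, Notch3 and Hes1 scatter within groups.

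Notch1 is the receptor through which Jagged1 and contactin are known to act on precursor cells. Its probe gave signals of 12295 and 12309.8 in miR-neg and 10219 and 11429.5 in miR-125a-3p. Both mimic arrays lay below both control arrays, with a gap of 0.05 on the log2 scale, smaller than the 0.14 and 0.13 between arrays of a group. Notch1 changed by -0.18 on the log2 scale (SE 0.10, 95% interval -0.45 to 0.09, n = 2 per group, adjusted p = 0.396 in limma). Notch1 was the only receptor among the members measured far from background, and the interval leaves room for a decrease of up to 1.37-fold.

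Notch2, a second receptor of the family, was dim. Its signals were 34.2 and 22.0 in miR-neg, and 23.9 and 10.5 in miR-125a-3p, and the last of these was not well above background. The groups overlapped, since miR-125a-3p replicate 1 lay between the controls on the log2 scale. The log2 change of -0.79 (SE 0.47, 95% interval -2.07 to 0.49, adjusted p = 0.432 in limma) rests on that dim array: without it the value was -0.18. With normexp background correction it was -0.30.

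Notch3, known in the vasculature as the receptor of mural cells, was well above background on all 4 arrays but also dim. Its signals were 47.7 and 43.9 in miR-neg and 52.1 and 39.4 in miR-125a-3p. On the log2 scale the controls differed by 0.01 and lay between the mimic arrays, which differed by 0.44. For Notch3 the difference was -0.01 (SE 0.17, 95% interval -0.47 to 0.45), and the sign turned (0.21) without miR-125a-3p replicate 2. Neither dim receptor could be shown to differ or to be equal between groups at this signal.

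Jag1, the Jagged ligand tied to inhibition of precursor differentiation, gave signals of 1429 and 1536 in miR-neg and 1100.2 and 1055 in miR-125a-3p. Its log2 levels were 0.94 and 1.18 in the controls and 0.65 and 0.56 after the mimic. The groups did not overlap, and the gap of 0.29 was larger than the 0.24 between the controls and the 0.09 between the mimic arrays. The mean went from 1.06 ± 0.17 to 0.60 ± 0.06 (SD, n = 2 each), a log2 change of -0.46 (SE 0.12, 95% interval -0.77 to -0.14), or 1.37-fold lower (1.10 to 1.71). It did not pass in limma (adjusted p = 0.165, unadjusted p = 0.0162). It passed with normexp (-0.43, adjusted p = 0.0168) and with a variance trend (adjusted p = 0.0195). These 2 were the only alternatives in which Jag1 passed. It was lower in 15 of 15, with changes of -0.58 to -0.34 when 1 array was left out. With 1 probe and groups apart, only another background correction or scaling could have turned its sign.

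Dll1, an activating Delta-like ligand, gave signals of 287.7 and 279.5 in miR-neg, and 307.7 and 340.7 in miR-125a-3p. Both mimic arrays lay above both controls, with a gap of 0.09 on the log2 scale. This gave a log2 change of 0.19 (SE 0.09, 95% interval -0.05 to 0.44, adjusted p = 0.339 in limma).

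Dll3, a divergent Delta-like protein known to act inside the signal-receiving cell as an inhibitor of Notch, gave 470 and 456 in miR-neg and 382 and 440 in miR-125a-3p. Relative to the 75th percentile its log2 levels were -0.67 and -0.57 in the controls and -0.88 and -0.71 after the mimic. The gap of 0.04 was smaller than the spread within either group, 0.09 and 0.17. Dll3 differed by -0.17 on the log2 scale (SE 0.10, 95% interval -0.45 to 0.10, adjusted p = 0.429 in limma). Of the 3 ligands, then, Jag1 and Dll3 lay lower and Dll1 higher, and none passed. These directions held in all 15 alternatives for each of the 3. With 1 probe per gene and groups apart, only another background correction or scaling could have turned them.

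The target genes are known to be switched on through RBPJ, whose core binding letters are TGGGAA. Whether they report its activity in these cells was not tested. RefSeq promoter windows on GRCr8 were available for 9 of the 10 members, and the 250 bases before each start were searched on both strands for TGGGAA. They were searched separately for the N box CACNAG, the letters that Hes repressors bind, where matches on opposite strands may overlap each other. Hes1, Hes5 and Nrarp are shown because they are targets of the same complex with different letters upstream. Each runs to the last base before the start, with TGGGAA matches on either strand in capitals.
Hes1, chr11:84213046-84213295, minus strand: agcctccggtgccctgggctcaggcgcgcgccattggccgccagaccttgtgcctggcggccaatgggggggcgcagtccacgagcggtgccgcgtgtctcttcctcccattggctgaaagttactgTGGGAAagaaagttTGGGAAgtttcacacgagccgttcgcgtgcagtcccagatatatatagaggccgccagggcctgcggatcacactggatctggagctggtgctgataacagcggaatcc
Hes5, chr5:170804327-170804576, plus strand: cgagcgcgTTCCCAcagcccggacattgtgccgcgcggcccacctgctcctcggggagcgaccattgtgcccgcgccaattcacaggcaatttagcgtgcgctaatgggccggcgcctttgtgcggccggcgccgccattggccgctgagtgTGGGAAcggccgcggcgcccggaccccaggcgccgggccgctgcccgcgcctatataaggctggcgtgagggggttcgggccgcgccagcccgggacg
Nrarp, chr3:28390495-28390744, plus strand: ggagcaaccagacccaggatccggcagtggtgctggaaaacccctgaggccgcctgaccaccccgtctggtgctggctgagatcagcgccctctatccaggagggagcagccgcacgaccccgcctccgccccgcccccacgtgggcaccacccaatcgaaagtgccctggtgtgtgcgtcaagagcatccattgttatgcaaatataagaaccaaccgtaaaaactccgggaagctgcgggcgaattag

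The Hes1 window holds 2 copies of TGGGAA on the same strand, beginning 123 and 109 bases before the start, 14 bases apart. Hes5 holds 1 copy on each strand, beginning 242 and 98 bases before the start. Nrarp holds 0 in this window. Among the other member windows, Dll1 holds 2 and those of Notch1, Notch2, Notch3, Jag1 and Dll3 hold 0. Of 33469 rat windows of the same length, 22.1% hold the letters at least once and 2.71% at least 2 times. CACNAG occurs 4 times upstream of Hes1 and of Notch1, 2 times upstream of Nrarp and 1 time upstream of Notch3, and it occurs in 37.2% of all windows. The member windows were 53.2% to 73.2% G and C, against a median of 51.2% over all windows. These matches are letters only and were not measured as binding.

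Nrarp encodes a small ankyrin-repeat protein that is induced by Notch and feeds back on it by destabilising the receptor's intracellular part. Its signals were 882 and 787 in miR-neg and 1143 and 1102 in miR-125a-3p. The log2 levels were 0.24 and 0.21 in the controls and 0.70 and 0.62 after the mimic, so the groups did not overlap. The gap of 0.38 exceeded the differences within groups, 0.03 and 0.08. The mean went from 0.23 ± 0.02 to 0.66 ± 0.06 (SD, n = 2 each), a log2 change of 0.43 (SE 0.08, 95% interval 0.21 to 0.65), or 1.35-fold higher (1.16 to 1.57). In limma it did not pass (adjusted p = 0.106, unadjusted p = 0.0052), although it had the smallest p of the members. It passed with normexp (0.43, adjusted p = 0.0133) and with a variance trend (adjusted p = 0.0111). Over all alternatives the adjusted p ran from 0.0111 to 0.355, and the change from 0.39 to 0.48.

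Hes1, a basic helix-loop-helix repressor with the paired TGGGAA letters shown above, was dim. Its signals were 35.9 and 19.8 in miR-neg, and 33.9 and 28.7 in miR-125a-3p, all well above background. The controls differed by 0.72 on the log2 scale and enclosed the mimic array of replicate 2, so the groups overlapped. For Hes1 the log2 change was 0.23 (SE 0.28, 95% interval -0.54 to 1.00, adjusted p = 0.702 in limma), and it turned to -0.13 without miR-neg replicate 2. A change of up to 2.00-fold upwards lies within the interval, so little can be said of Hes1 from this probe.

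Hes5, the repressor known as an effector of Notch in precursors, was measured more closely. Its signals were 130.3 and 132 in miR-neg and 139 and 141 in miR-125a-3p. The log2 levels were -2.52 and -2.37 in the controls and -2.34 on both mimic arrays. The mimic arrays lay above both controls, by a gap of 0.02 that was smaller than the 0.15 between the controls. The log2 change was 0.10 (SE 0.09, 95% interval -0.15 to 0.35, adjusted p = 0.589 in limma), an interval that runs up to 1.27-fold higher.

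Hey1, a related repressor with a YRPW-type end in place of the WRPW of Hes proteins, gave 169 and 166 in miR-neg and 162 and 174 in miR-125a-3p. The groups overlapped fully. The log2 change was 0.01 (SE 0.09, 95% interval -0.23 to 0.24, adjusted p = 0.973 in limma), and the sign flipped with normexp (-0.0060). Among the 4 targets, then, Nrarp showed a gap wider than its spread, while the intervals of Hes5 and Hey1 allow at most 1.27-fold and 1.18-fold upwards. Whether the change of Nrarp differs from those of the Hes and Hey genes was not tested.

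**Figure D2:**
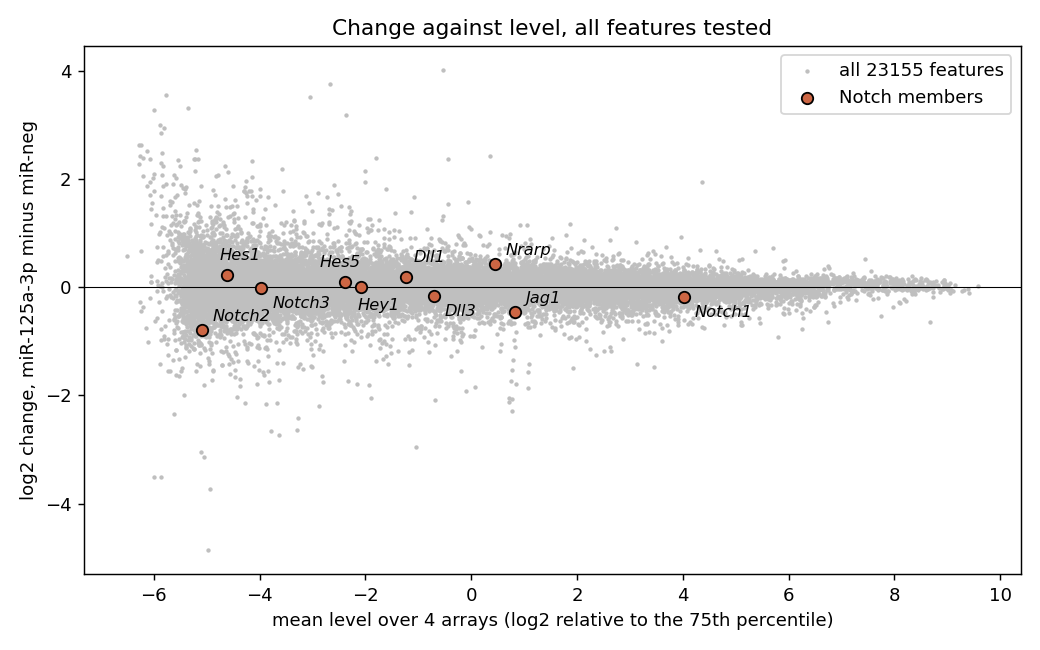
The log2 change of each of 23155 features (grey) is plotted against its mean level over 4 arrays, with the 10 Notch genes in orange. The members lie within the cloud of all features, Jag1 and Nrarp toward its lower and upper edges at their level, and the cloud widens toward the dim end where Notch2, Notch3 and Hes1 lie.

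The scanner software's own error was 10.2% to 10.3% of the signal for Hey1 and 10.3% to 10.6% for Hes5, but 14.2% to 21.5% for Hes1 and 15.8% to 35.3% for Notch2. Among 1543 features within 0.25 log2 of the mean level of Hes1, the median difference between the miR-neg arrays was 0.28. Near Jag1 it was 0.10 over 1111 features and near Notch1 0.08 over 581 features. The control differences of these members were above the medians, at 0.72 for Hes1, 0.24 for Jag1 and 0.14 for Notch1. So were those of Notch2 (0.50 against 0.35) and, barely, Hes5 (0.148 against 0.145). Other members lay below the median at their level: Nrarp (0.03 against 0.10), Notch3 (0.01 against 0.22) and Dll1 (0.09 against 0.12). The same held for Dll3 (0.09 against 0.11) and Hey1 (0.11 against 0.14). The controls of Nrarp were thus closer than is usual at its level.

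By the pattern over 4 arrays, the features most like Nrarp were Tceal1, Cib2 and Rpp25l. After each gene was centred on its own mean, their root mean square differences from Nrarp were 0.0065, 0.015 and 0.018 on the log2 scale. With 4 arrays such likeness is not particular to these 3: 78 of 11017 candidate features came within 0.05. The changes of the 3 were 0.44, 0.46 and 0.42.

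The rest of the pathway was read from lists of 61 further genes, of which 51 had a probe with a matching accession and 43 were tested. None passed: 0 were higher and 0 lower in limma, with 9 at an unadjusted p under 0.05, 3 higher and 6 lower, where 19.5% of all features were. Groups did not overlap for 24 of 43 genes, 6 higher and 18 lower, against 52.9% of all features (28.7% higher and 24.1% lower). The median change was -0.04, against 0.01 for all features.

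Of the other receptors and ligands, 4 of 5 on the array were tested, and 3 of the 4 lay above 0. Cntn1 encodes contactin, a surface protein known as a Notch ligand that favours maturation of this lineage. Its signals were 18781 and 18561 in miR-neg and 15339 and 15449 in miR-125a-3p, and the groups did not overlap. The log2 change was -0.27 (SE 0.08, adjusted p = 0.209 in limma), and its other probes changed by -0.32 and -0.53. It passed with a variance trend (adjusted p = 0.0401). Notch4 (0.09) and Dlk1 (0.19), a Delta-like membrane protein, did not pass. Dll4 was not well above background on any array.

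All 9 genes for proteases that cut Notch lay below 0, with a median of -0.15, where 10994 of 23155 features lay below 0. Ncstn, Psenen and Adam17 were near 0, at -0.008, -0.01 and -0.03. Under quantile normalization and with normexp, 2 of the 9 lay above 0. Psen2 encodes a catalytic subunit of gamma-secretase. It gave 2083 and 2073 in miR-neg and 1299 and 1305 in miR-125a-3p, so its groups stood apart by 0.59 on the log2 scale. The log2 change was -0.67 (SE 0.09, 95% interval -0.91 to -0.43, adjusted p = 0.0705 in limma). The adjusted p was 0.0022 with normexp, 0.0011 with a variance trend, and 0.0371 when only features well above background on every array were tested, and Psen2 passed in these 3 settings. Adam10, the protease that makes the first cut after ligand binding, was at -0.27 (adjusted p = 0.243 in limma).

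Of 5 glycosyltransferase genes, 3 lay above 0 and 2 below. Mfng encodes manic fringe, which extends O-fucose on Notch and so tunes its response to ligands, and it had the smallest p of all pathway genes tested. Its signals were 93.2 and 88.9 in miR-neg and 38.5 and 30.6 in miR-125a-3p, all well above background, and the groups stood apart by 1.19 on the log2 scale. The log2 change was -1.40 (SE 0.15, 95% interval -1.81 to -0.996, adjusted p = 0.0572 in limma), just short of the threshold. It passed with median centring (adjusted p = 0.0377), with a variance trend (0.0034) and when only features well above background on every array were tested (0.0249). It also passed with normexp, where the change shrank to -0.57 (adjusted p = 0.0034). Pofut1, which adds the fucose that fringe extends, was at 0.22, and Poglut1, which adds glucose, at -0.13. Neither passed.

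Of 11 trafficking and ubiquitin ligase genes, 6 lay above 0 and 5 below. Dtx4 and Dtx3 encode Deltex ligases that act on the receptor, and Fbxw7 the ligase part that marks its intracellular portion for destruction. Dtx4 was dim, at 40.8 and 23.1 in miR-neg and 52.8 and 57.9 in miR-125a-3p, with a log2 change of 0.85 (SE 0.25, adjusted p = 0.200 in limma) that was 0.24 with normexp. Dtx3 was at 0.24 and Fbxw7 at -0.20, with a second Fbxw7 probe at 0.02. None of these passed.

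Of 12 genes of the transcription complex, 9 lay below 0 (10 with median centring and normexp), against 10994 of 23155 features. Rbpj, the DNA-binding partner of cleaved Notch, gave 1460 and 1109 in miR-neg and 1011 and 716 in miR-125a-3p. The groups did not overlap, but arrays within a group differed widely, and the log2 change of -0.58 (SE 0.22, adjusted p = 0.271 in limma) was -0.10 at its second probe, where the groups overlapped. Tle1 and Tle2, Groucho corepressors that Hes proteins recruit, were at -0.49 and -0.25 (adjusted p = 0.124 and 0.272). Tle1 passed with a variance trend (adjusted p = 0.0356).

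Other Hes and Hey genes were mostly not seen: Hes2, Hes3, Hey2 and Heyl were well above background on 0 arrays. Hes7, the segmentation-clock member of the family, was well above background on all 4 arrays. Its signals were 24903 and 25119 in miR-neg and 24347 and 24032 in miR-125a-3p, brighter than any of the members. The log2 change was -0.04 (adjusted p = 0.827 in limma). Whether so bright a probe reports Hes7 alone was not tested.

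**Figure D3:**
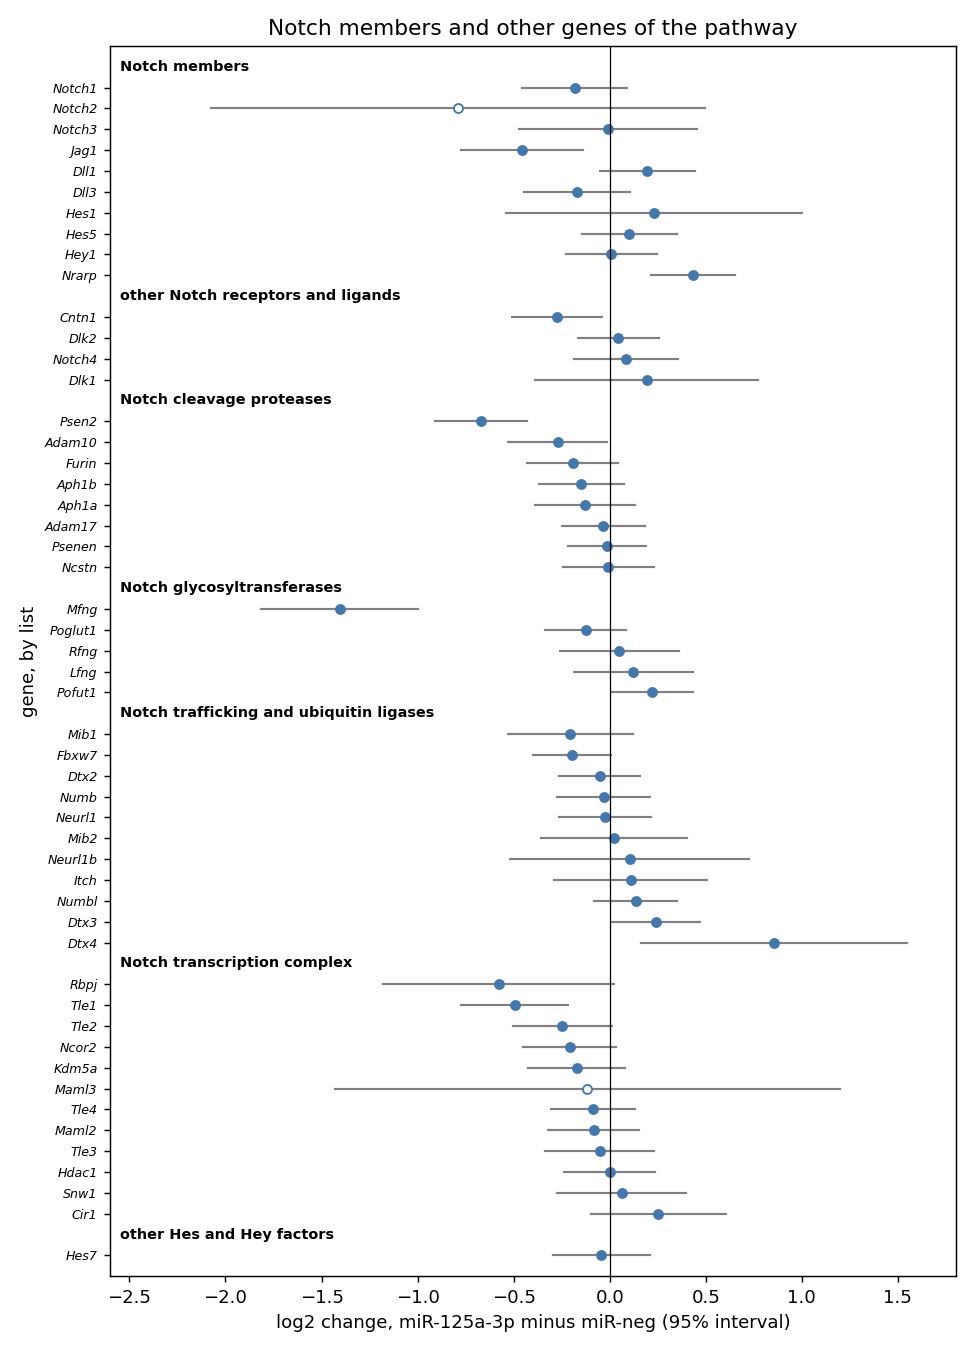
Points give the log2 change of the 10 members and 41 of the other pathway genes tested, lines its 95% interval, and open points genes not well above background on at least 1 array. Mfng at -1.40 and Psen2 at -0.67 lie farthest from 0 relative to their intervals, and among the members the intervals of Jag1 and Nrarp alone leave out 0.

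**Figure D4:**
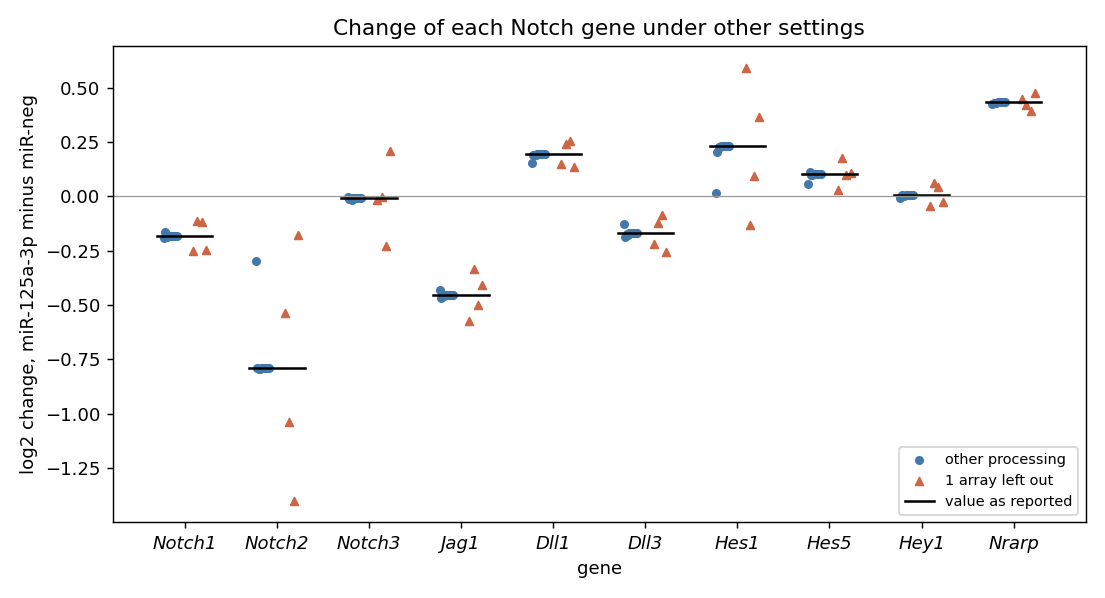
The log2 change of each member is shown under other processing (blue), with 1 array left out (orange triangles) and as reported (black line). Nrarp stays between 0.39 and 0.48 and Jag1 between -0.58 and -0.34, while Notch2 spans -1.40 to -0.18 and Hes1 -0.13 to 0.59.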

How the data were processed

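Intensities were read from 1-colour scanner files, which the authors made with Agilent Feature Extraction 10.7.3.1 (background-subtracted and detrended, per the file headers). The deposited table of log2 values matched log2 of the processed intensity after a shift by 1 constant for each array, and served as an alternative. Control spots and flagged spots were left out, spots of a probe were averaged, and arrays were centred on their 75th percentile. Probes well above background on at least 2 arrays were kept (27250 of 45598). RefSeq accessions gave symbols through a GRCr8 table (21109 probes). The brightest probe stood for its gene, leaving 23155 features. The groups were tested by limma 3.58.1 under R 4.3.3 (lmFit, eBayes, two-sided) and Benjamini-Hochberg adjustment over all features, threshold 0.05, and the script was tested on simulated data. The members and gene lists were chosen with earlier results of these data known. Named beside the members were, per pathway list, up to 3 genes with the smallest p and any past the threshold, of which 2 are not reported here. Alternatives covered background correction, normalization, filters, probes, variances, threshold, a replicate block and each array left out. All arrays lay on 1 slide, where position along 1 axis followed the group, so both cannot be told apart. Position along the other axis followed the replicate number, and those cannot be told apart either.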

Additional observations from a re-analysis of the deposited data

How the results depend on the processing

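Of 149 values of the members under the alternatives, 144 kept their sign. Many of these could not have turned. Each member was read by 1 probe, so filters, probe choices, variance settings and the replicate block return the same change. Leaving out 1 array cannot turn a member whose groups do not overlap. The 5 values that turned were Hey1 with normexp (-0.0060), and, with 1 array left out, Hey1 (-0.047 to 0.061), Hes1 (-0.13 to 0.59) and Notch3 (-0.23 to 0.21). Leaving out 1 array also turned Dlk1 (-0.075 to 0.46), Notch4 (-0.0050 to 0.18) and Hes7 (-0.12 to 0.029). Normexp used median spot signals, chosen after seeing the data, in place of mean spot signals, which were not used here. The count of 159 features was 1601 with normexp, 83 with quantile normalization, 0 without a filter on dim probes, 613 on probes above background on all 4 arrays, 2048 with a variance trend and 984 at a threshold of 0.1. It ranged from 0 to 0 when miR-neg replicate 1 or 2 or miR-125a-3p replicate 1 or 2 was left out, with 2748 to 4116 features at an unadjusted p under 0.05. Of the members, 2 passed with normexp, and a variance trend also gave 2. Of the other pathway genes, 2 passed with normexp, 1 with median centring, 2 on probes above background on all 4 arrays, 5 with a variance trend and 2 at a threshold of 0.1. With the replicate number as a block, 0 features, 0 members and 0 other pathway genes passed. Same-numbered arrays had deviations correlated at 0.0505, which with 2 arrays per group cannot settle whether the numbers pair them. What causes these differences was not tested. A lone array is assumed to vary like the other group. Dim signals limit what can be said of Notch2, Notch3 and Hes1.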
